A study of Homo sapiens with 6 samples.

Results

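The symbols NSUN, METTL and TRMT followed by a number name enzymes that move a methyl group, most of them onto RNA. In the deposited count table, 49 protein-coding genes carry such a symbol, out of 58735 genes of all kinds and 19951 protein-coding genes. They comprise 6 NSUN, 26 METTL and 17 TRMT genes. The genes were chosen by symbol and gene type, and no measured value entered that choice, but the group itself was selected on knowledge of log2 fold changes of this same comparison, so the values of its genes are given as a description.

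RNA was sequenced from H2452, a human pleural mesothelioma cell line, in 3 sgCtrl and 3 sg*NF2*-1 libraries. Both groups received a lentiviral construct that expresses Cas9, mCherry and a single guide RNA, and mCherry-positive cells were sorted. The sgCtrl cells carried a scrambled guide and are labelled wild type, and the sg*NF2*-1 cells carried 1 guide against *NF2* and are labelled *NF2* knockout. Both were grown in RPMI-1640 with fetal bovine serum. Each group is a sorted pool made with 1 guide rather than a clone, and the second *NF2* guide of the study is not analysed here. The study's statistics section describes its data in general as biological replicates, but the labels do not say that the 3 libraries of a group came from separate cultures. P-values measure the spread between these libraries, which may in part be technical.

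Methylation is among the most common chemical changes of RNA. In transfer RNA it supports folding, stability and accurate decoding, in ribosomal RNA it accompanies ribosome assembly, and in messenger RNA the N6-methyladenosine mark is written by a complex built around METTL3 and METTL14. NSUN enzymes place methyl groups on cytosine, TRMT enzymes act mainly on transfer RNA, and the METTL symbols cover a mixed group in which several members act on proteins or on small thiol compounds instead of RNA. *NF2* encodes merlin, a membrane-linked protein that acts upstream of the Hippo pathway.

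Library totals lay between 14782423 and 17416463 counts. Levels of single genes are given below in CPM, counts per 1000000 counts of the library, with the library total scaled by edgeR's TMM factors, which ranged from 0.9648 to 1.0251, and every mean ± SD is over 3 libraries. *NF2* stood at 73.7, 72.9 and 67.5 CPM in sgCtrl replicates 1 to 3 and at 39.3, 52.0 and 41.4 CPM in sg*NF2*-1. Its transcript was therefore reduced to 62.0% of the sgCtrl mean and not lost (log2 fold change -0.69, SE 0.10, adjusted p = 7.9e-06, edgeR). Of 9 mesothelial markers, none was at 0 in any library. *MSLN* (0.66) and *KRT18* (0.28) were higher, and *WT1* (-1.04), *PDPN* (-1.28), *KRT19* (-0.94) and *HEG1* (-0.34) were lower by log2 fold change. Their summed level was 3670 to 4020 CPM in sgCtrl and 3170 to 3780 CPM in sg*NF2*-1, and its part in the results below was not tested.

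Of the 49 genes, 42 had enough reads to be tested and 7 did not. *TRMT9B*, *METTL11B*, *METTL24* and *METTL21C* had a count of 0 in every library, where 3 counts correspond to 0.17 to 0.211 CPM. The others were *METTL7A* and *METTL7B*, which act on small thiols, and *NSUN7*. *METTL7A* had 8, 5 and 10 counts in sgCtrl and 3, 2 and 4 in sg*NF2*-1, *METTL7B* had 2, 7 and 5 against 1, 3 and 0, and *NSUN7* had 4, 5 and 4 against 2, 0 and 1. These counts are too low for a test.

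Levels compared between genes are given per length, as the deposited FPKM values, which divide each count by gene length and library depth. The mean FPKM over all 6 libraries ran from 0.341 for *METTL25* to 74.8 for *METTL26*, with a median of 4.6 over the 42 tested genes and 3.91 over all 14179 tested genes. *METTL26* and *TRMT112*, at 73.4 FPKM, stood well above the rest. *TRMT112*, the shared activator of several methyltransferases, was at 78.9 ± 6.97 FPKM in sgCtrl and *METTL26* at 72.7 ± 9.43 FPKM, so the order of this pair lies within their spread. *TRMT1* (20.7), *TRMT2A* (18.2), *TRMT10C* (17.3), *METTL5* (17.0), *NSUN5* (16.3) and *METTL9* (15.8) came next. Within sg*NF2*-1, *NSUN5* at 22.1 ± 3.4 FPKM and *TRMT1* at 26.1 ± 2.24 FPKM stood above *TRMT10C* at 17.7 ± 0.565 FPKM, while in sgCtrl *NSUN5* was below it (10.5 ± 1.11 against 17.0 ± 1.58 FPKM).

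14 of the 42 tested genes rose in sg*NF2*-1 (33.3%) and 1 fell (2.38%), with a call set at an adjusted p under 0.05 (quasi-likelihood test of edgeR, adjusted over all 14179 genes). Among all tested genes 17.7% rose and 16.6% fell, or 34.3% in either direction. The median log2 fold change of the 42 genes was 0.20, against 0.00 for all tested genes, and 33 of the 42 lay above 0. Without sgCtrl replicate 2, only 8 of the 42 were called higher. In that fit 2016 of all 14402 tested genes were called higher, against 2515 of 14179 with all libraries. With a log2 fold change beyond 0.5 required as well, 6 rose (14.3%, against 8.42% of all tested genes) and none fell (9.32% of all tested genes). At an unadjusted p under 0.05, 19 were higher and 4 lower, and 1 of these, *METTL25*, was lower past that fold limit. DESeq2 called 14 higher and 1 lower, with none lower past the limit.

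**Figure D1:**
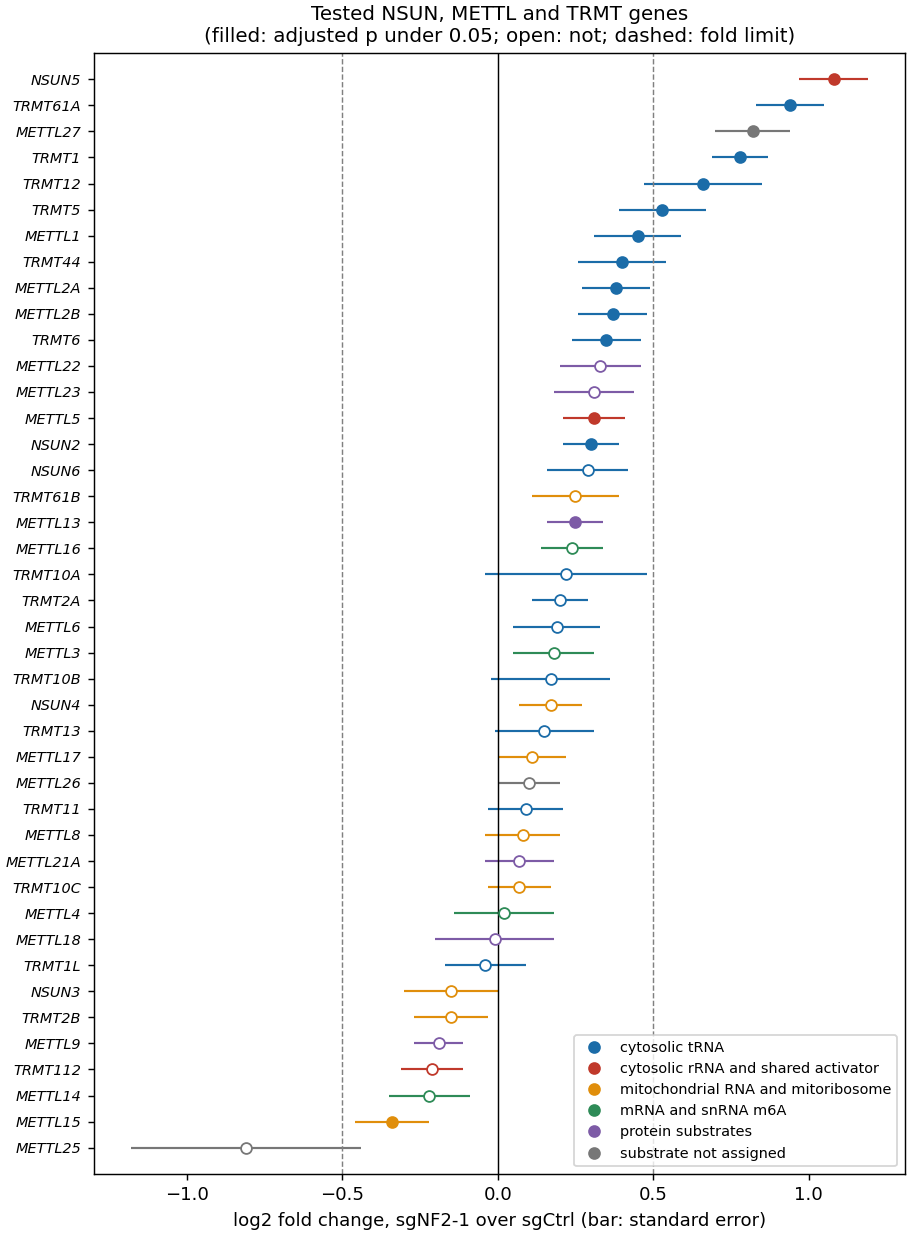
Log2 fold change of sg*NF2*-1 over sgCtrl (x axis, bars show the standard error) for the 42 tested NSUN, METTL and TRMT genes, sorted and coloured by substrate. Filled points have an adjusted p under 0.05, and 6 of them, from *NSUN5* at 1.08 to *TRMT5* at 0.53, lie beyond the dashed line at 0.5.

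For 19 of the 42 genes all sg*NF2*-1 libraries were above all sgCtrl libraries (45.2%, against 23.2% of all tested genes), and for 3 they were below (7.14%, against 22.2%). The 3 were *METTL9*, *METTL15* and *METTL25*. By family, 2 of 5 tested NSUN genes rose (median log2 fold change 0.29), as did 6 of 21 METTL genes (0.18) and 6 of 16 TRMT genes (0.21). The gene that fell was a METTL gene. Among all tested genes 17.7% rose and 16.6% fell. The difference between families was not tested.

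The counts by substrate stand beside 17.7% of all tested genes that rose and 16.6% that fell, and a count of 0 in 8 or 4 genes is near what those shares give. Each gene was put in 1 group, so an enzyme that also acts in mitochondria may stand under cytosolic transfer RNA. The 18 tested genes of that cytosolic group held 10 of the 14 genes that rose, none that fell, and a median log2 fold change of 0.32. The 3 genes *NSUN5* and *METTL5*, of ribosomal RNA, and *TRMT112*, the shared activator, held 2 that rose, with a median of 0.31. None of the 8 mitochondrial genes rose and 1 fell (median 0.08), and none of the 4 genes linked to N6-methyladenosine was called (median 0.10). *MRM1*, *MRM2*, *MRM3*, *TFB1M* and *TFB2M*, mitochondrial genes without these symbols, did rise and are given further below. At an unadjusted p under 0.05, 0 of the 8 mitochondrial genes and 1 of the 4 N6-methyladenosine genes were higher, and DESeq2 called 0 higher in both. The differences between these groups of genes were not tested.

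The sequences shown are the starts of genes that rose together and of the 1 other member with the same motif. RefSeq promoters (GRCh38.p14, 250 bases before to 50 after the start) were at hand for 38 of the 49 genes and 11 of the 14 that rose. The canonical E-box CACGTG reads the same on both strands and is bound by MYC-family and related factors. It was found in 3 of the 38 promoters (7.89%), 2 of the 11 genes that rose (18.2%) and 7.43% of all 27305 promoters. Its windows follow 5′ to 3′ on the gene's strand, with the E-box in capitals. They lie at chr14:103529216-103529245 on the plus strand, chr20:5950512-5950541 on the minus strand and chr2:207625929-207625958 on the minus strand.
TRMT61A: gcgtcgcggaggCACGTGtggagccccggc
TRMT6: agcggcgtgcaaCACGTGggggcggtgccg
METTL21A: ggactcgggcgcCACGTGttcacttccccc

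*TRMT61A* and *TRMT6* encode the 2 subunits of 1 enzyme and both rose, and *METTL21A* did not pass the test (log2 fold change 0.07). TGATGCA, the letters of a C/EBP-ATF composite element, was searched on both strands and found in 0 of the 38 promoters and 2.69% of all promoters. GGAATG, the core of the TEAD motif, was found on either strand in 3 of the 38 (7.89%) and 14.0% of all, and in 0 of the 11 genes that rose. A match or its absence describes these letters in these windows and says nothing of the factor. CpG content was also counted. The 38 promoters had a median of 22 CpG and 59.8% GC in 300 bases, against 14 CpG and 58.3% GC in all promoters. Of the 38, 35 belong to tested genes, while the set of all promoters was not limited to tested genes. The part of this in the difference was not tested. The RefSeq starts of 3 genes past the fold limit are shown for their CpG content. The runs cover the bases from 200 to 51 before the start, on the minus strand, with CG in capitals, and lie at chr7:73308877-73309026, chr7:73842567-73842716 and chr14:60981741-60981890.
NSUN5: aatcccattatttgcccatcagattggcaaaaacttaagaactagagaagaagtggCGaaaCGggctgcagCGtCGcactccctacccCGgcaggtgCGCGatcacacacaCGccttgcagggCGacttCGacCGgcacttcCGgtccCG
METTL27: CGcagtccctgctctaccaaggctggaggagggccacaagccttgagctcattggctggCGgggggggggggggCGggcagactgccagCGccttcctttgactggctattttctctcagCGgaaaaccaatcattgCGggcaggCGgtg
TRMT5: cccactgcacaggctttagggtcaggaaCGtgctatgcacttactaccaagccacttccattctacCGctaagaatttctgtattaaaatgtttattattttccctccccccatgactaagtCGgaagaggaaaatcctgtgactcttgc

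The *NSUN5* run held 13 CpG and 57.3% GC, the *METTL27* run 7 CpG and 64.0% GC, and the *TRMT5* run 3 CpG and 44.7% GC. CpG content thus differed between these RefSeq starts. The RefSeq start of *TRMT5* lies upstream of the deposited gene, which spans chr14:60971451-60981358. Its run falls within the span of *SLC38A6* (chr14:60981114-61083733), a gene on the opposite strand. The *TRMT5* run may therefore not describe the start of the counted gene.

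*NSUN5* methylates a cytosine of the large-subunit ribosomal RNA. It had the highest log2 fold change of the 42 genes. It stands at chr7:73302517-73308867 on the minus strand (ENSG00000130305), and its level was 42.2, 34.2 and 37.6 CPM in sgCtrl and 73.5, 72.6 and 94.7 CPM in sg*NF2*-1. The lowest sg*NF2*-1 library was well above the highest sgCtrl library. The mean went from 38.0 ± 4.02 to 80.3 ± 12.5 CPM (log2 fold change 1.08, SE 0.11, adjusted p = 2.4e-08, edgeR).

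The unprocessed pseudogenes *NSUN5P1* and *NSUN5P2* lie on the same chromosome. *NSUN5P1* had 299, 266 and 199 counts in sgCtrl and 313, 261 and 239 in sg*NF2*-1 (log2 fold change 0.09, SE 0.13, adjusted p = 0.64). *NSUN5P2* had few counts, 24, 27 and 14 against 11, 16 and 7 (log2 fold change -0.92, SE 0.42, adjusted p = 0.095). Neither copy passed the test. Of all 150-base stretches of the *NSUN5* transcripts, 5.23% occur exactly in those of *NSUN5P2* and 0.0973% in those of *NSUN5P1*. The genes *POM121* (4.47%) and *POM121C* (2.33%) share such stretches too, and 5.32% occur in any other gene. Stretches that differ by a mismatch were not counted, so reads that nearly fit a copy are not covered. The count ratio of *NSUN5* to *NSUN5P1* within a library was 2.22, 2.11 and 2.86 in sgCtrl and 4.13, 4.30 and 5.64 in sg*NF2*-1, with no overlap. As for every ratio below without overlap, a permutation test gave p = 0.10, the lowest that 3 against 3 libraries can give. How often other gene pairs separate like this was not counted.

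*METTL5* methylates an adenine of the small-subunit ribosomal RNA and needs TRMT112 as its partner. *METTL5* was at 48.0, 43.1 and 46.7 CPM in sgCtrl and 55.4, 51.2 and 64.7 CPM in sg*NF2*-1, a log2 fold change of 0.31 (SE 0.10, adjusted p = 0.016, edgeR). The call was lost without sgCtrl replicate 2 (adjusted p = 0.081) and without sg*NF2*-1 replicate 3 (0.09). *TRMT112* was at 149, 127 and 130 CPM in sgCtrl and at 111, 105 and 136 CPM in sg*NF2*-1, and the groups overlapped through sg*NF2*-1 replicate 3. Its log2 fold change was -0.21 (SE 0.10, adjusted p = 0.099) and passed the test without that library (-0.32, adjusted p = 0.0088).

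The count ratio of *METTL5* to *TRMT112* was 0.322, 0.339 and 0.361 in sgCtrl and 0.501, 0.487 and 0.475 in sg*NF2*-1, and the groups did not overlap (permutation test, p = 0.10). Both genes share exon bases with a gene on the opposite strand, and whether the counting used strand is not given in the sources used here. The overlap is 20.0% of *METTL5* exon bases with *SSB* and 17.5% of *TRMT112* exon bases with *ESRRA*. *SSB* had 1902 to 2058 counts in sgCtrl and 1918 to 2251 in sg*NF2*-1, and *ESRRA* 1027 to 1272 against 1218 to 1598. Their part in the ratio was not tested.

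*TRMT61A* and *TRMT6* encode the catalytic and the RNA-binding subunit of the enzyme that makes 1-methyladenosine in cytosolic transfer RNA. *TRMT61A* (ENSG00000166166, chr14:103529184-103537073, plus strand) was at 25.6, 23.0 and 22.7 CPM in sgCtrl and 43.2, 40.1 and 53.1 CPM in sg*NF2*-1. All sg*NF2*-1 libraries stood clear of sgCtrl. The mean rose from 23.7 ± 1.6 to 45.5 ± 6.78 CPM (log2 fold change 0.94, SE 0.11, adjusted p = 5.3e-07, edgeR).

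*TRMT6* was at 22.0, 20.7 and 20.6 CPM in sgCtrl and 26.0, 26.4 and 28.1 CPM in sg*NF2*-1, a log2 fold change of 0.35 (SE 0.11, adjusted p = 0.016, edgeR). These groups did not overlap either, although the call was lost without sgCtrl replicate 2 (adjusted p = 0.06). The count ratio of *TRMT61A* to *TRMT6* was 1.16, 1.11 and 1.10 in sgCtrl and 1.66, 1.52 and 1.89 in sg*NF2*-1, with means of 1.12 ± 0.0329 and 1.69 ± 0.188. The groups were apart on this ratio.

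*TRMT1* makes dimethylguanosine in transfer RNA. It stands at chr19:13104902-13117567 on the minus strand and was at 54.9, 52.8 and 55.2 CPM in sgCtrl and 88.0, 89.7 and 103 CPM in sg*NF2*-1. The sgCtrl libraries were close together and the sg*NF2*-1 libraries all above them. The mean rose from 54.3 ± 1.33 to 93.5 ± 8.18 CPM (log2 fold change 0.78, SE 0.09, adjusted p = 1.7e-07, edgeR). Its relative *TRMT1L* had a log2 fold change of -0.04 (SE 0.13, adjusted p = 0.85).

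*TRMT5* methylates a guanine next to the anticodon, and *TRMT12* acts in the pathway to wybutosine, a bulky base at the same place in phenylalanine transfer RNA, which starts from the product of TRMT5. *TRMT5* (chr14:60971451-60981358, minus strand) was at 11.4, 12.5 and 16.7 CPM in sgCtrl and 20.1, 20.0 and 18.5 CPM in sg*NF2*-1. The third sgCtrl library was nearest to sg*NF2*-1 but still below it. Its log2 fold change was 0.53 (SE 0.14, adjusted p = 0.0039, edgeR) and ranged from 0.42 to 0.71 over the 13 alternatives, all with the call.

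*TRMT12* was a low-level gene with 70, 60 and 60 counts in sgCtrl and 120, 93 and 87 in sg*NF2*-1. The groups did not overlap (4.02 ± 0.397 and 6.32 ± 0.436 CPM, log2 fold change 0.66, SE 0.19, adjusted p = 0.01, edgeR). Without sgCtrl replicate 2 the adjusted p was 0.051. Further enzymes on the wybutosine route, *LCMT2* (-0.15, adjusted p = 0.39) and *TYW1* (0.03, adjusted p = 0.85), did not pass the test, and *TYW3*, the enzyme between TRMT12 and LCMT2, fell. *TYW3* was at 11.1, 13.3 and 16.9 CPM in sgCtrl and at 8.18, 8.88 and 9.06 CPM in sg*NF2*-1 (log2 fold change -0.66, SE 0.16, adjusted p = 0.0018, edgeR).

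**Figure D2:**
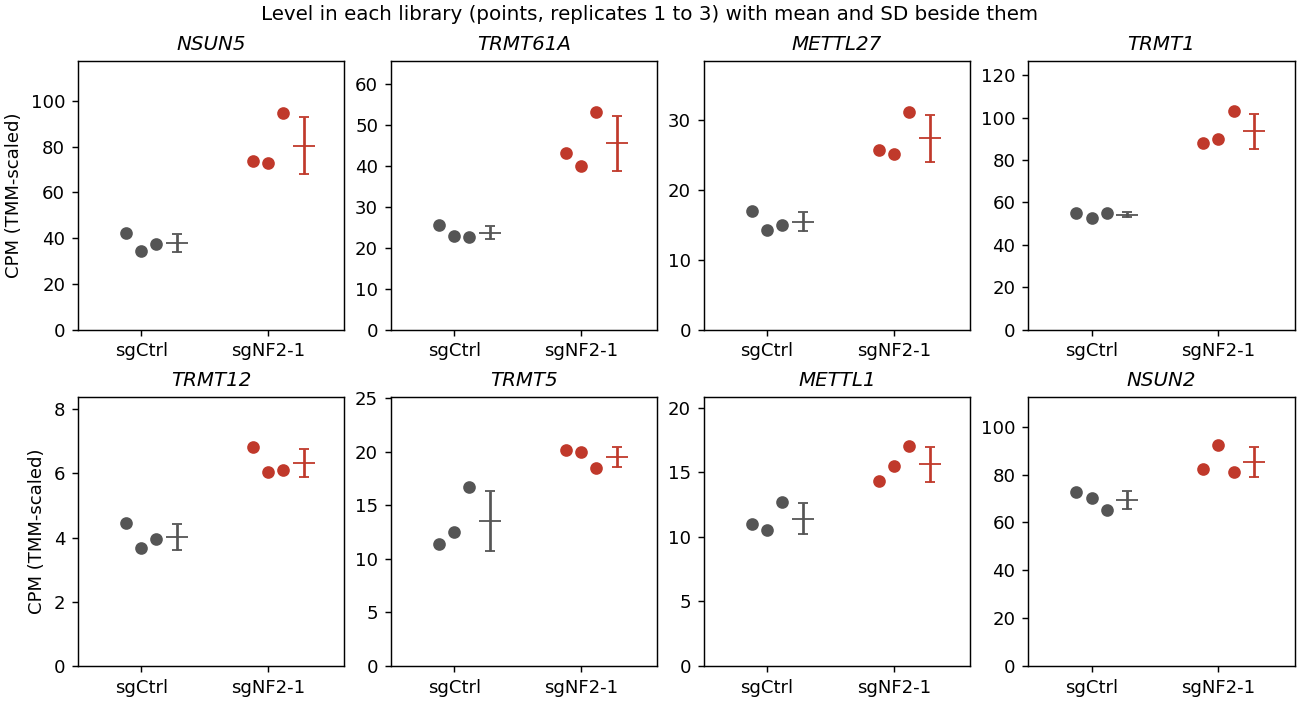
Level in CPM (y axis, from 0) of 8 genes in each sgCtrl (grey) and sg*NF2*-1 (red) library, replicates 1 to 3 from left to right, with the mean and SD beside the points. In all 8 panels every sg*NF2*-1 library lies above every sgCtrl library, with means going from 38.0 to 80.3 CPM for *NSUN5* and from 69.4 to 85.2 CPM for *NSUN2*.

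*METTL1*, the catalytic subunit of the 7-methylguanosine enzyme of transfer RNA, had 173, 172 and 193 counts in sgCtrl and 252, 239 and 242 in sg*NF2*-1, which is 11.4 ± 1.18 and 15.6 ± 1.34 CPM. The highest sgCtrl library was below the lowest sg*NF2*-1 library (log2 fold change 0.45, SE 0.14, adjusted p = 0.012, edgeR). Without sgCtrl replicate 2 the adjusted p was 0.063. *METTL1* shares 19.3% of its exon bases with *EEF1AKMT3* on the opposite strand, which had 182 to 216 counts in sgCtrl and 159 to 238 in sg*NF2*-1.

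*WDR4*, the non-catalytic partner of METTL1, was at 37.7, 32.2 and 26.7 CPM in sgCtrl and 45.7, 45.0 and 51.6 CPM in sg*NF2*-1. Both genes of this enzyme rose (*WDR4* log2 fold change 0.56, SE 0.11, adjusted p = 0.00042, edgeR). The count ratio of *METTL1* to *WDR4* overlapped between groups, at 0.291, 0.326 and 0.477 in sgCtrl and 0.313, 0.344 and 0.329 in sg*NF2*-1.

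**Figure D3:**
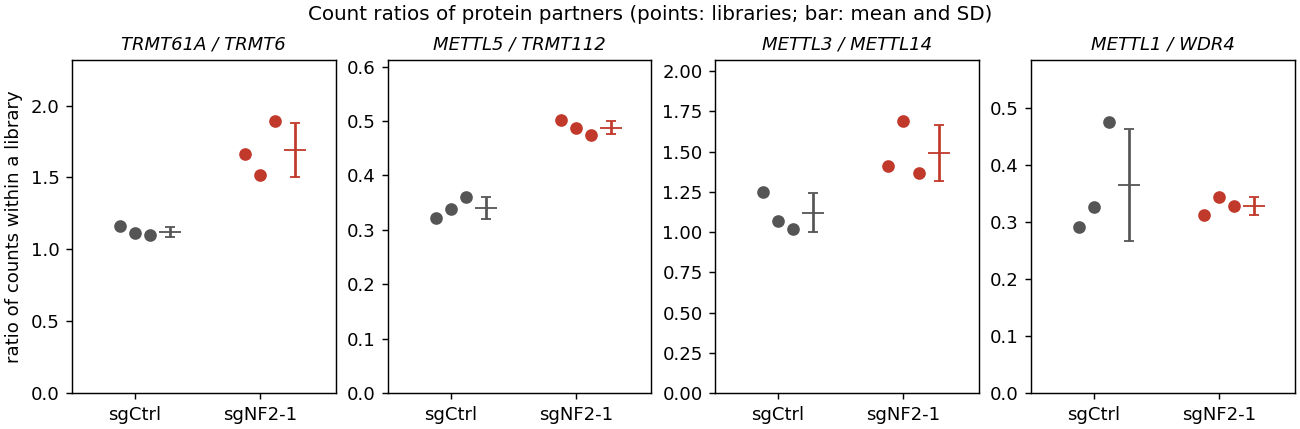
Ratio of the counts of 2 genes whose proteins act together (y axis, from 0), in each sgCtrl (grey) and sg*NF2*-1 (red) library, with the mean and SD beside the points. The sg*NF2*-1 libraries lie above sgCtrl for *TRMT61A* to *TRMT6* (1.12 to 1.69), *METTL5* to *TRMT112* (0.34 to 0.488) and *METTL3* to *METTL14* (1.12 to 1.49), and the groups overlap for *METTL1* to *WDR4*.

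*NSUN2* makes 5-methylcytosine in many transfer RNAs. By mean FPKM over all 6 libraries it was second of the 6 NSUN genes, at 13.2 against 16.3 for *NSUN5*. In sgCtrl alone *NSUN2* was at 11.9 ± 0.671 FPKM and *NSUN5* at 10.5 ± 1.11 FPKM. *NSUN2* was at 72.8, 70.2 and 65.2 CPM in sgCtrl and 82.5, 92.3 and 80.9 CPM in sg*NF2*-1. The groups did not overlap, but the lowest sg*NF2*-1 and the highest sgCtrl library were close (log2 fold change 0.30, SE 0.09, adjusted p = 0.01, edgeR). The call was lost without sg*NF2*-1 replicate 2 (adjusted p = 0.087). *NSUN6*, which methylates the acceptor end of certain transfer RNAs, had a log2 fold change of 0.29 (SE 0.13, adjusted p = 0.08).

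*METTL2A* and *METTL2B*, near-identical enzymes that make 3-methylcytosine in transfer RNA, both rose. *METTL2A* went from 22.1 ± 1.78 to 28.8 ± 1.14 CPM (log2 fold change 0.38, adjusted p = 0.0089) and *METTL2B* from 34.0 ± 3.81 to 44.0 ± 3.47 CPM (0.37, adjusted p = 0.0081, both edgeR). Exact 150-base stretches shared with *METTL2B* make up 8.78% of those of *METTL2A*, so reads could in part be counted for either gene. Without sg*NF2*-1 replicate 2 the adjusted p of *METTL2B* was 0.059. *METTL6*, a related enzyme for serine transfer RNA, had a log2 fold change of 0.19 (adjusted p = 0.29).

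*TRMT44*, which methylates the ribose of a uridine in serine transfer RNA, went from 14.3 ± 0.665 to 18.7 ± 3.43 CPM (log2 fold change 0.40, SE 0.14, adjusted p = 0.026, edgeR). The sg*NF2*-1 libraries were spread from 15.3 to 22.2 CPM, and without the highest of them, replicate 1, the log2 fold change was 0.26 (adjusted p = 0.21). Without sgCtrl replicate 2 the adjusted p was 0.086. The cytosolic transfer RNA genes that did not pass the test, beside *TRMT1L*, *NSUN6* and *METTL6*, were *TRMT10A* (0.22), *TRMT2A* (0.20), *TRMT10B* (0.17), *TRMT13* (0.15) and *TRMT11* (0.09). *TRMT11* also works with TRMT112, and the ratio of their counts overlapped between groups.

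The 8 genes of mitochondrial RNA and the mitochondrial ribosome lay between -0.34 and 0.25 in log2 fold change. *METTL15*, which methylates the small-subunit mitochondrial ribosomal RNA, was the 1 gene called lower. Its level was 22.3, 20.5 and 25.7 CPM in sgCtrl and 18.9, 17.1 and 18.0 CPM in sg*NF2*-1 (log2 fold change -0.34, SE 0.12, adjusted p = 0.031, edgeR). The groups did not overlap, yet the call was lost under 6 of 13 alternatives, which were the fit with no filter and the omission of any library but sgCtrl replicate 2, with adjusted p from 0.023 to 0.14 over all 13.

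The other mitochondrial genes did not pass the test. They were *TRMT61B* (0.25), which makes 1-methyladenosine in mitochondrial RNA, *NSUN4* (0.17), which acts in mitochondrial ribosome assembly, *METTL17* (0.11), *METTL8* (0.08), *TRMT10C* (0.07), a subunit of mitochondrial RNase P, and *NSUN3* and *TRMT2B* (both -0.15). *TRMT61B* shares 22.9% of its exon bases with *SPDYA* on the opposite strand, which had 8 to 31 counts. *TRMT61A* and *TRMT61B*, the cytosolic and mitochondrial relatives, thus had log2 fold changes of 0.94 (SE 0.11) and 0.25 (SE 0.14).

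*METTL3* and *METTL14* form the core of the enzyme that writes N6-methyladenosine on messenger RNA, and neither passed the test. *METTL3* was at 22.2, 15.9 and 19.3 CPM in sgCtrl and 21.5, 22.5 and 21.1 CPM in sg*NF2*-1 (log2 fold change 0.18, SE 0.13, adjusted p = 0.28, edgeR). *METTL14* was at 17.7, 14.9 and 18.8 CPM in sgCtrl and 15.2, 13.3 and 15.4 CPM in sg*NF2*-1 (-0.22, SE 0.13, adjusted p = 0.19). Each gene overlapped between groups, with the 2 estimates on opposite sides of 0.

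The count ratio of *METTL3* to *METTL14* did not overlap, at 1.25, 1.07 and 1.02 in sgCtrl and 1.41, 1.69 and 1.37 in sg*NF2*-1. A permutation test gave p = 0.10, the lowest that 3 against 3 libraries can give, so the ratio does not settle a shift between these genes. *METTL3* shares 6.58% of its exon bases with *TOX4* on the opposite strand, which had 709 to 852 counts in sgCtrl and 878 to 1019 in sg*NF2*-1. *METTL16*, which acts on U6 small nuclear RNA and on the messenger of a methionine adenosyltransferase, had a log2 fold change of 0.24 (SE 0.10, adjusted p = 0.051), and *METTL4* one of 0.02.

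*METTL27* was the 1 gene past the fold limit to which no substrate was assigned. It stands at chr7:73834590-73842535 on the minus strand and had 266, 234 and 227 counts in sgCtrl and 450, 387 and 443 in sg*NF2*-1, which is 15.4 ± 1.36 and 27.3 ± 3.35 CPM. Every sg*NF2*-1 library was above sgCtrl (log2 fold change 0.82, SE 0.12, adjusted p = 1e-05, edgeR). *METTL25* had the lowest log2 fold change of the 42 genes at few counts, 21, 26 and 33 in sgCtrl and 21, 15 and 10 in sg*NF2*-1 (-0.81, SE 0.37, adjusted p = 0.10), and *METTL26* had 0.10.

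Among the 6 tested genes whose enzymes act on proteins, *METTL13*, which methylates the translation elongation factor eEF1A, rose by a log2 fold change of 0.25 (SE 0.09, adjusted p = 0.04, edgeR). This call was lost under 7 of the 13 alternatives, 5 of which left out a library: sgCtrl replicate 2 or 3 or any sg*NF2*-1 replicate (adjusted p from 0.028 to 0.12 over all 13). *METTL22* (0.33, adjusted p = 0.059) and *METTL23* (0.31, adjusted p = 0.062) did not pass the test although their groups did not overlap. *METTL21A*, which methylates Hsp70 proteins, was at 0.07, *METTL18*, which modifies a ribosomal protein, at -0.01, and *METTL9*, which methylates histidine, at -0.19 (adjusted p = 0.072).

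*NSUN5* and *METTL27* lie 0.526 Mb apart on chromosome 7, in the segment that is deleted in Williams-Beuren syndrome. Of the 5 tested genes on either side of *NSUN5*, 4 rose and none fell, where 17.7% of all tested genes rose and 16.6% fell. Their log2 fold changes ran from -0.92 for *NSUN5P2* to 0.47 for *TBL2*, with a median of 0.29. Beside *TBL2*, those that rose were *GTF2IP4* (0.41), *BCL7B* (0.40) and *SBDSP1* (0.31). *BAZ1B*, the next tested gene to *NSUN5* on the side of *METTL27*, was at 0.04 (SE 0.09). *BUD23*, a ribosomal RNA methyltransferase gene that also needs TRMT112 and lies between *NSUN5* and *METTL27*, had a log2 fold change of 0.21 (SE 0.09, adjusted p = 0.088).

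Around *METTL27* the 10 neighbours ranged from -0.74 to 0.31 (median 0.20). Of these, 2 rose and none fell, where 17.7% of all tested genes rose and 16.6% fell. The count ratio of *METTL27* to *BUD23* was 0.193, 0.181 and 0.168 in sgCtrl and 0.276, 0.279 and 0.278 in sg*NF2*-1. The tested gene nearest to *TRMT1* on one side, *LYL1*, rose by 1.11 (SE 0.23, adjusted p = 0.00044), and *NACC1* on the other was at 0.08. The medians over the 10 neighbours were -0.03 for *TRMT61A*, 0.13 for *TRMT1*, -0.07 for *TRMT12* and 0.03 for *TRMT5*. *SLC38A6*, which shares 4.3% of the exon bases of *TRMT5* on the opposite strand, had a log2 fold change of -0.27 (adjusted p = 0.16).

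**Figure D4:**
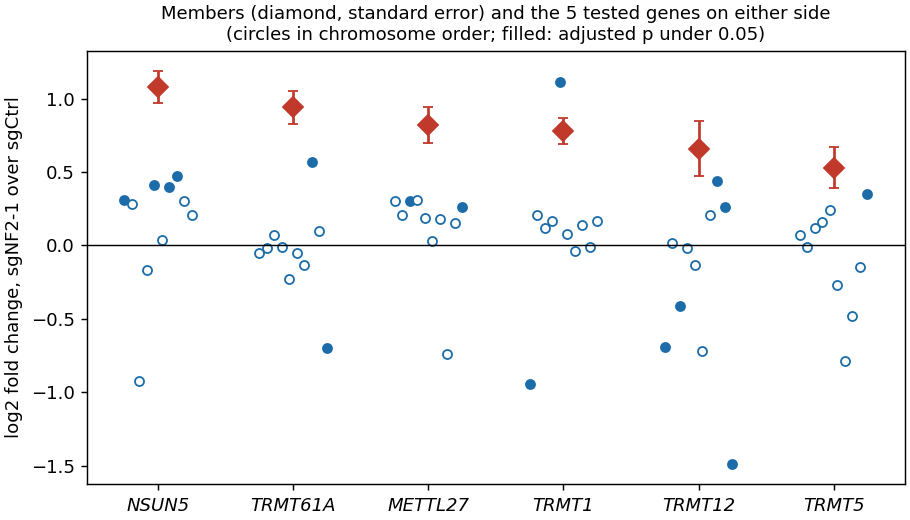
Log2 fold change of sg*NF2*-1 over sgCtrl (y axis) of the 6 genes past the fold limit (diamonds with the standard error) and of the 5 tested genes on either side of each (circles in chromosome order, filled where the adjusted p is under 0.05). All but 1 neighbour, *LYL1* beside *TRMT1* at 1.11, lie below their own diamond. This is largely set by the choice of the diamonds, as 8.42% of all tested genes rose past that limit.

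Genes of RNA methylation with other symbols were grouped in 5 lists of 52 genes, of which 49 were tested. In all, 14 of the 49 rose and 1 fell, where 17.7% of all tested genes rose and 16.6% fell, and the median log2 fold change was 0.08. The ribosomal RNA list had the most calls, with 7 of 11 tested genes higher, none lower and a median of 0.43. *FBL*, the methyltransferase of the box C/D particles, rose from 65.6 ± 4.13 to 96.9 ± 8.24 CPM (0.56, adjusted p = 2.3e-05), and *DIMT1*, which acts on the small subunit, had 0.43 (adjusted p = 0.00077).

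The other 5 of these 7 genes encode mitochondrial proteins. They were *MRM1* (0.69), *TFB1M* (0.65), *MRM3* (0.54), *TFB2M* (0.45) and *MRM2* (0.23), with adjusted p from 7e-05 to 0.037 in edgeR. *TFB1M* methylates the same mitochondrial small-subunit RNA as METTL15, the gene that fell. *TFB1M* was at 16.8, 17.3 and 18.3 CPM in sgCtrl and 26.3, 29.5 and 26.6 CPM in sg*NF2*-1. *MRM3* shares 34.9% of its exon bases with *GLOD4* on the opposite strand, which had 1234 to 1335 counts in sgCtrl and 1499 to 1784 in sg*NF2*-1. *NOP2*, the NSUN relative that lacks the NSUN symbol, had 7 to 11 counts a library and was not tested, and it shares 54.4% of its exon bases with another annotated gene on the same strand that was at 0.

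Of the 15 transfer RNA genes with other symbols, 3 rose, a share near the 17.7% of all tested genes. They were *WDR4*, *FTSJ1* (0.35, adjusted p = 0.0033), which methylates riboses of the anticodon loop, and *THADA* (0.31, adjusted p = 0.023), its presumed partner in that work. *TYW3* fell, and the median was 0.03. Of the 8 tested cap and small RNA genes, the cap methyltransferase *RNMT* (0.37), *PCIF1* (0.26), which methylates the adenosine next to the cap, and *MEPCE* (0.27), which adds the methyl cap of a nuclear small RNA, rose, with a median of 0.25.

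None of the 6 partners of the N6-methyladenosine writer passed the test (median -0.06). *WTAP* was at -0.19 (adjusted p = 0.07) and *CBLL1* at 0.29 (adjusted p = 0.067). At an unadjusted p under 0.05, 1 was higher and 1 lower, and DESeq2 called 0. Of the 9 tested erasers and readers of this mark, *IGF2BP2* rose (0.38, SE 0.09, adjusted p = 0.0011), and the median was 0.03. The eraser genes *FTO* (0.24, adjusted p = 0.056) and *ALKBH5* (0.02, adjusted p = 0.88) did not pass the test.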

How the data were processed

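RNA of 3 sgCtrl and 3 sg*NF2*-1 libraries was sequenced by the authors as paired 150-base reads (NEBNext Ultra kit, NovaSeq). Raw counts of reads for each gene and FPKM values were deposited by the authors. The submitters' processing notes name HISAT2, StringTie 1.3.3b, featureCounts 1.5.0-p3 and hg38. The strand setting of the counting is not given in the sources used here. Sample titles gave the groups and replicate numbers.

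Genes were filtered with filterByExpr (minimum count 10, minimum total 15), scaled by TMM and fitted by group with edgeR 4.0.16 in R 4.3.3 using the quasi-likelihood test, with Benjamini-Hochberg adjustment over 14179 genes. The scripts were tested on simulated data. The SE is the log2 fold change divided by the square root of F. A call needed an adjusted p under 0.05, and the fold limit of 0.5 follows the study. DESeq2 1.42.0 was 1 of 13 alternatives. The FPKM values were used for levels between genes, with no test. Every library's value was printed for genes past the fold limit and for *NSUN2*, *METTL1*, *METTL3*, *METTL14*, *TRMT6*, *TRMT61A* and *TRMT112*, and also for *METTL5*, *METTL15*, *METTL25* and some partner genes, chosen after their values were seen. The members and lists were chosen with earlier results of these data known. Exon overlaps and shared stretches (exact, either strand) were computed from GENCODE 29, in which all 49 genes have the deposited start, end and exon length. No protein sequences were used here.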

Additional observations from a re-analysis of the deposited data

How the results depend on the processing

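The 13 alternatives were DESeq2, a replicate block, library totals or the size factors of DESeq2 within edgeR, protein-coding genes alone, the omission of each library, and either no filter or a stricter one (10 counts or more throughout). The number of the 42 genes called higher ranged from 8 to 17 when 1 library was left out (14 with all), with 8 without sgCtrl replicate 2, where *TRMT12*, *METTL1*, *TRMT44*, *TRMT6*, *METTL5* and *METTL13* missed the threshold. Past the fold limit the range was 4 to 7 (6 with all). Among all tested genes, 2016 to 2514 were called higher when 1 library was left out (2515 with all). The number of the 42 genes called lower was 2 with library totals, 0 with no filter and 0 to 1 when 1 library was left out (1 with all). Of the partner genes, 11 to 15 were called higher when 1 library was left out (14 with all), and 2 were called lower with library totals and 2 with the replicate block (1 with all). *NSUN5*, *TRMT61A*, *METTL27*, *TRMT1*, *TRMT5* and *METTL2A* were called higher under all 13. For single genes, 517 values kept their side of the threshold, 22 lost the call, 7 gained it and 0 of the called genes reversed. Some estimates of genes without a call crossed 0, such as *METTL4* (-0.13 to 0.29) and *TRMT1L* (-0.16 to 0.12). Where a call changed, the cause was not tested. The groups share replicate numbers, but same-numbered libraries did not deviate together (correlations of -0.044, 0.091 and 0.071), so the numbers were not taken as pairs. With the replicate block 15 of the 42 genes were called higher and 1 lower, and *METTL16* passed (adjusted p = 0.039). Leaving out a library left 2 in a group, and a group of 3 limits all calls. *METTL25*, with 10 to 33 counts a library, had the largest SE (0.37), followed by *TRMT10A* (0.26).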
